A study of Mus musculus with 10 samples.

Results

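The genes described here are 35 ligands, antagonists and inhibitors of the TGF-beta and BMP family among the 24500 genes counted in the study. They were taken by symbol from a list, a rule that uses no measured value, although earlier results of these data were known when the list was drawn up: 9 BMP ligands, 9 GDF ligands, 7 activin, inhibin and TGF-beta ligands (with Amh), 3 genes of the Nodal and Lefty group, and 7 antagonists or intracellular inhibitors. All 35 symbols were found in every count table. The study mapped H3K27me3 and EZH2 by ChIP-seq in control (wild-type) E14 cells, a mouse embryonic stem (ES) cell line labelled as strain 12910la, and in ex14D-Ezh2 cells made from the same line. In ex14D-Ezh2 cells CRISPR-Cas9 had introduced an in/del into exon 14 of Ezh2, which shifts the reading frame of transcripts that contain this exon. Transcripts that splice it out can still encode an enzyme, named ex14D-EZH2, so EZH2 need not be absent. The titles of these samples read Ezh2KO, a name that the study gives to a separate knockout line. Their genotype label instead names a knock out of exon 14. They were taken as ex14D cells from the genotype label. There were 2 libraries for each antibody and genotype and 1 input library for each genotype. Whether the 2 libraries of a genotype came from separate cultures or clones is not stated in the labels, so the tests measure only the spread between these libraries. ChIP-seq counts at Ezh2 cannot check an in/del, and the genotype was taken from the labels.

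EZH2 is the catalytic subunit of Polycomb repressive complex 2 (PRC2), which methylates lysine 27 of histone H3, and the trimethylated form, H3K27me3, covers the promoters of many silent developmental genes in ES cells. TGF-beta family ligands are secreted dimers that signal through serine/threonine kinase receptors to Smad proteins. BMPs and many GDFs act through Smad1, Smad5 and Smad9, whereas activins, Nodal and the TGF-betas act through Smad2 and Smad3. Extracellular antagonists such as Noggin, Chordin, Gremlin and Follistatin trap ligands, and Smad6, Smad7 and Bambi restrain the signal in or at the receiving cell. In mouse ES cells Nodal and Lefty genes belong to a pathway that is active, whereas most BMP and GDF genes are used later, in the embryo's patterning.

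To show what sequence the promoters with the most and the least of the mark have, RefSeq promoter sequences (GRCm38.p6) are printed for the 3 members with the highest and the 3 with the lowest H3K27me3 over input in control cells among those with an entry in the sequence table. Each run is the 250 bases before the start site, 5′ to 3′ on the gene's own strand, and capitals mark CpG dinucleotides. The highest were Bmp6 (chr13:38345466-38345715, forward strand), Inhbb (chr1:119422249-119422498, reverse strand) and Grem1 (chr2:113758649-113758898, reverse strand), with 22, 21 and 24 CpGs in these bases.
Bmp6: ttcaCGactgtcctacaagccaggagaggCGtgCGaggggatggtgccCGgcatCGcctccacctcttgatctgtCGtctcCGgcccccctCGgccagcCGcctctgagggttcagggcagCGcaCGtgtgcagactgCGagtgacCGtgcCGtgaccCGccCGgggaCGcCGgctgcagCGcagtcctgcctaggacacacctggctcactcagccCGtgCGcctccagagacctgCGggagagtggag
Inhbb: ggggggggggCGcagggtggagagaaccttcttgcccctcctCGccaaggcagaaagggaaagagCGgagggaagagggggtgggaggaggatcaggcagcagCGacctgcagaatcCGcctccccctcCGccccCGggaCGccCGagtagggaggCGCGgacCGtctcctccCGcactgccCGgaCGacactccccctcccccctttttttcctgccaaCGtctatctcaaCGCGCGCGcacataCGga
Grem1: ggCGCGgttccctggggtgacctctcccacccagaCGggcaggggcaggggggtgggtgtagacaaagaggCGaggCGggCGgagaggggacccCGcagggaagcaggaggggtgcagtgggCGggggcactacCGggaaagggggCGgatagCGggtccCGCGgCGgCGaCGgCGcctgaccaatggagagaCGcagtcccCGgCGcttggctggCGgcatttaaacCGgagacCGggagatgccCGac

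The lowest were Bmp10 (chr6:87428744-87428993), Bmp5 (chr9:75775115-75775364) and Nodal (chr10:61417722-61417971), all on the forward strand, with 3, 4 and 3 CpGs.
Bmp10: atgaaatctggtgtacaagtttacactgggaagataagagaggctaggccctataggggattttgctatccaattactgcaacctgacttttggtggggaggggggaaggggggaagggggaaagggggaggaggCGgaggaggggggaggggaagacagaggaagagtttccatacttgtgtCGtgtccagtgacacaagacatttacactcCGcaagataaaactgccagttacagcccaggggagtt
Bmp5: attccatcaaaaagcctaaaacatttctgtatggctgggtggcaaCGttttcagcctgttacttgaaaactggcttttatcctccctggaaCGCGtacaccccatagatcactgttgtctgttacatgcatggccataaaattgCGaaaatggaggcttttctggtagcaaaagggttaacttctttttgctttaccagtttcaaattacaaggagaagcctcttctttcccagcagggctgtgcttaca
Nodal: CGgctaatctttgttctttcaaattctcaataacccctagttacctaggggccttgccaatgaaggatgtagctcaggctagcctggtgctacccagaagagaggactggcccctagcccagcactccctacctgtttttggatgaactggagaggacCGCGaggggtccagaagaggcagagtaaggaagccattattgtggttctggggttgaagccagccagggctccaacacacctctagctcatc

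The study also chose the Bmp6 promoter for ChIP-PCR. Its primers delimit a product of 111 bp on the forward strand at chr13:38345562-38345672 (GRCm38), which lies 44 to 154 bp upstream of the Bmp6 start site and holds 11 CpGs. The product is shown because all 4 H3K27me3 peaks and all 4 EZH2 domains at Bmp6 spanned it. Capitals mark the primer sites.
Bmp6 product: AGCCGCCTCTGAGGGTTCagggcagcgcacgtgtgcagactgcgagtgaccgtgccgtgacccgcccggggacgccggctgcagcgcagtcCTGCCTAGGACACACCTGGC

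Depth differed between the kinds of library and, for H3K27me3, between the genotypes. H3K27me3 and input reads were counted in promoter windows of 1000 bp centred on the 5′-most start site. These windows took 594289 and 937207 reads in the control H3K27me3 libraries (5.65% and 5.98% of reads counted). In ex14D they took 1450937 and 1248018 (7.58% and 6.86%), and in the inputs 409371 and 416778. Depth and this share thus went with genotype, and their part in the H3K27me3 comparisons was not tested. EZH2 counts followed gene length and are treated as counts on genes, with 13628137 to 18403892 reads per library. Levels below are counts per 1000000 reads on genes (CPM), with no further scaling. Tests used edgeR's quasi-likelihood method after TMM scaling, with Benjamini-Hochberg adjustment over all genes tested and a threshold of 0.05. No spike-in is named in the sources used here, so every value is a share of a library's reads, and a share of reads cannot be told apart from an amount per cell. Lists of marker promoters were checked in control cells: H3K27me3 was enriched at 5 of 5 promoters of differentiated lineages (log2 enrichment of 2.62 to 4.97) and at 0 of 7 ES cell promoters, Pou5f1 and Nanog among them (−4.69 to 1.90). Of 3 fibroblast promoters, 2 were enriched.

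H3K27me3 was found at part of the family in control cells. Enrichment was taken as log2((CPM + 1)/(input CPM + 1)), and a promoter was called enriched when both libraries of a genotype were at least 2-fold over the input of that genotype. By this measure 19 of the 35 members (54.3%) were enriched in control cells, against 11.3% of all 24500 promoters. In ex14D cells 14 members (40%) were enriched, against 9.14% of all promoters. The inputs set a limit on these values, because a member promoter had only 8 to 30 input reads where it had any.

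**Figure D1:**
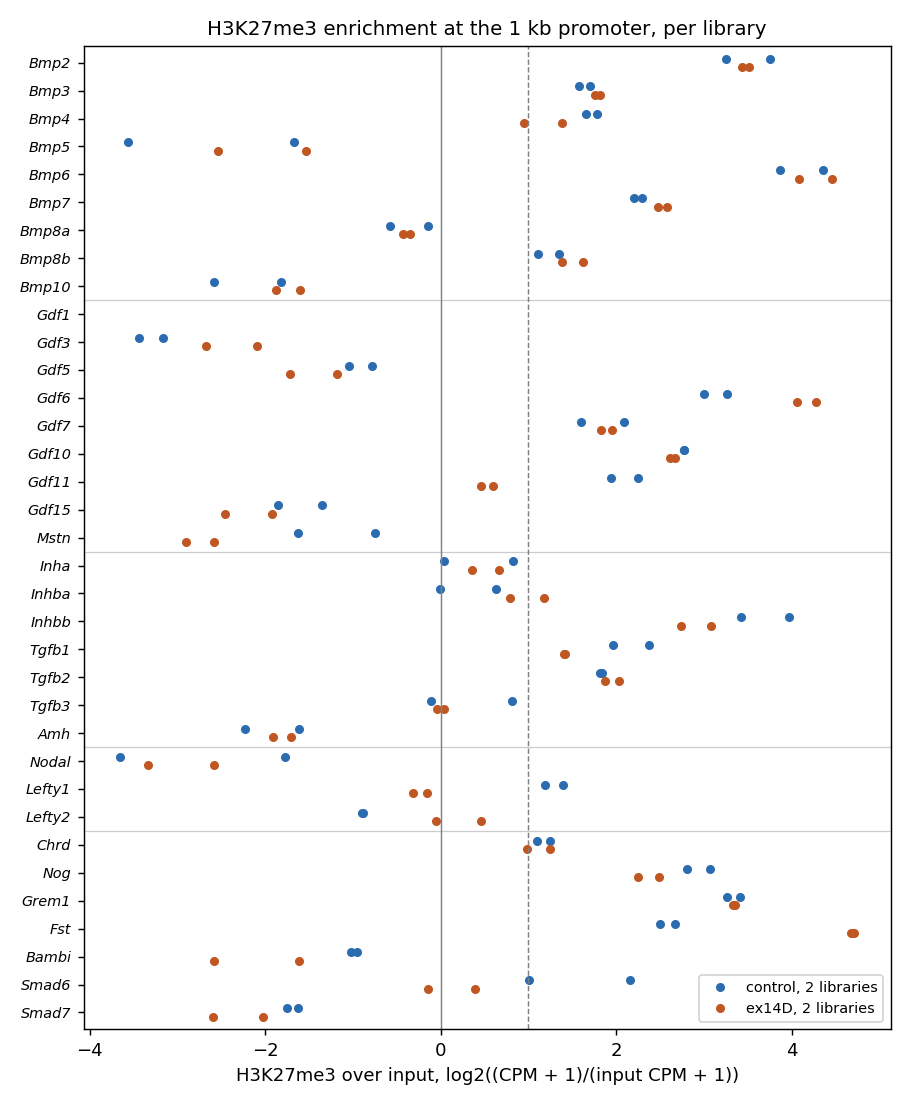
H3K27me3 at the 35 promoters, grouped by role from BMP ligands (top) to antagonists and inhibitors (bottom); each point is 1 library (blue, control; orange, ex14D), the x axis is log2 enrichment over the input of the same genotype, and the dashed line marks 2-fold. Bmp6 lies between 3.87 and 4.46 in all 4 libraries, Nodal between −3.65 and −1.78, and Gdf1, with 0 reads in every library, has no point.

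The 6 highest members in control cells came from each side of the pathway, ligands and antagonists. Bmp6, a BMP ligand known for its role in iron homeostasis and bone, was highest, with log2 enrichments of 4.36 and 3.87 in control and 4.08 and 4.46 in ex14D. Inhbb, which encodes the beta-B subunit of activins and inhibins, had 3.97 and 3.42 in control and 3.08 and 2.74 in ex14D. Bmp2, a ligand of heart and bone development, had 3.75 and 3.25 in control and 3.52 and 3.44 in ex14D. All 3 stayed more than 2-fold over input in every library, and only Inhbb was lower in both ex14D libraries than in both control libraries. Grem1, a secreted BMP antagonist of limb bud and kidney, had 3.41 and 3.26 in control and 3.33 and 3.36 in ex14D. Gdf6, a ligand of joint and eye development, had 3.26 and 3.00 in control and 4.06 and 4.28 in ex14D. Nog, the gene of the BMP antagonist Noggin, had 3.07 and 2.81 in control and 2.49 and 2.25 in ex14D. Gdf6 was thus higher and Nog lower in both ex14D libraries, whereas the values of Grem1 overlapped.

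The 4 lowest members in control cells were all ligands. Gdf3, a ligand expressed in pluripotent cells, had log2 enrichments of −3.44 and −3.17 in control. Nodal, the ligand of mesoderm and left-right patterning, had −3.65 and −1.78, and Bmp5 had −1.67 and −3.56. Bmp10, a ligand of the developing heart, had −1.82 and −2.58. Each of these 4 promoters had 14 reads or fewer in either control H3K27me3 library, so their order among themselves is not resolved.

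The 5 members enriched in control cells but not in ex14D cells were Gdf11, Bmp4, Smad6, Lefty1 and Chrd. For 2 of them, Bmp4 and Chrd, only ex14D replicate 2 was below 2-fold, and narrowly. Bmp4 had 1.78 and 1.66 in control and 1.38 and 0.95 in ex14D. Chrd had 1.10 and 1.25 in control and 1.25 and 0.98 in ex14D. Gdf11, a ligand of axial patterning, went from 1.94 and 2.25 to 0.60 and 0.46, but its inputs also differed, with 16 reads in control and 27 in ex14D. Lefty1, a feedback inhibitor of Nodal, went from 1.40 and 1.19 to −0.16 and −0.31 while its input reads went from 12 to 29. With both inputs summed, a setting chosen after the data were seen, 17 members were enriched in control and 15 in ex14D. With CPM over all counted reads, 20 were enriched in control and 22 in ex14D. The opposite case was Fst, the gene of the activin-binding protein Follistatin, whose enrichment went from 2.67 and 2.50 to 4.71 and 4.68 while its input fell from 28 reads to 8. The exact 95% Poisson intervals of those inputs, 18.6 to 40.5 and 3.45 to 15.8 reads, do not overlap and cover counting error only. For this reason the genotypes were compared on the ChIP counts themselves.

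In that comparison no member had lower H3K27me3 in ex14D cells and 5 of the 33 tested had higher H3K27me3 (15.2%), against 3.19% lower and 5.85% higher among the 14883 promoters tested. The 5 were the ligands Bmp6, Gdf6 and Bmp8b and the antagonists Grem1 and Fst. Scaling mattered for these counts. The median log2 fold change of all promoters was −0.02 with TMM and −0.47 when libraries were scaled by size alone. Under the latter the members gave 2 higher (Bmp6 and Gdf6) and 3 lower (Gdf11, Tgfb1 and Smad6). Of the 14883 promoters, 398 were higher and 2130 lower under that scaling. The median over the members was 0.25 with TMM and −0.20 with library size alone, so its sign depends on the scaling. Without control replicate 2 the count of higher members was 0, with 7 at an unadjusted p under 0.05, and without either ex14D replicate it was 3 (Bmp6, Gdf6 and Grem1 in both). Among the 2658 tested promoters enriched in both control libraries 28.6% were higher, close to the 5 of 19 members (26.3%) in that group, so the members did not stand apart from other enriched promoters by this count. Their median there, 0.30, was also near the 0.33 of those promoters.

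**Figure D2:**
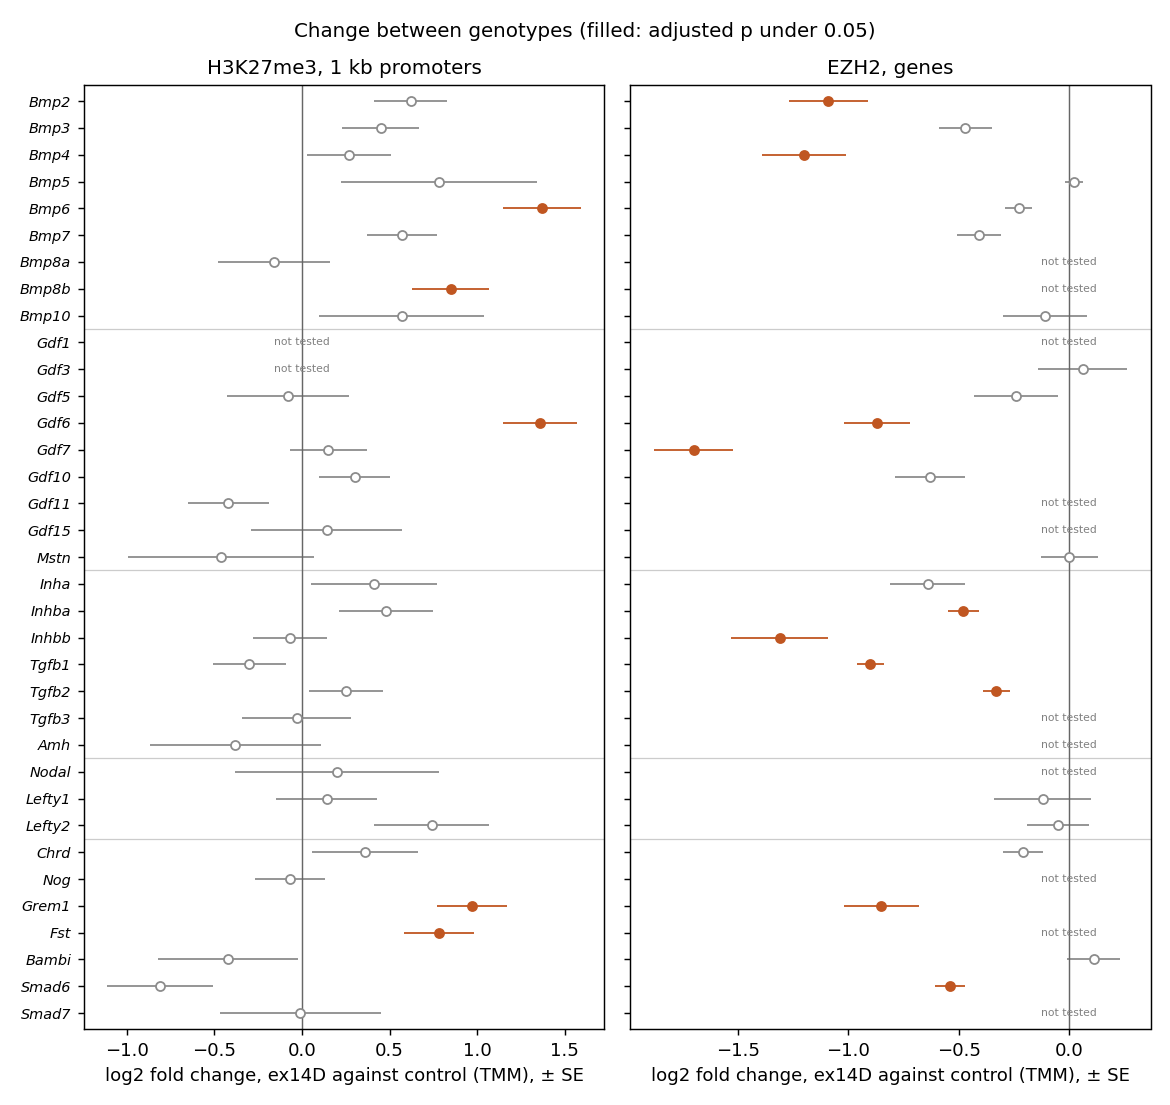
Log2 fold change of ex14D against control with its standard error for the 33 members tested for H3K27me3 at promoters (left) and the 24 tested for EZH2 on genes (right), after TMM scaling; genes without a test are written as not tested; filled orange points passed an adjusted p of 0.05 in edgeR. The 5 filled points for H3K27me3 lie between 0.78 and 1.37 (with library size alone 2 of them pass), and the 10 for EZH2 between −1.70 and −0.33.

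Bmp6 (chr13:38345716-38500314, forward strand) and Gdf6 had the largest rises in share of reads, by near-equal amounts. The Bmp6 promoter had 621 and 443 CPM in control and 868 and 1131 CPM in ex14D, so both ex14D libraries were above both control libraries. The log2 fold change was 1.37 with a standard error (SE) of 0.22 (edgeR adjusted p = 9.66e-05), and 0.92 with library size alone (adjusted p = 0.00177). Gdf6 (chr4:9844372-9862345, forward strand) had 313 and 261 CPM in control and 496 and 579 CPM in ex14D, again without overlap. Its log2 fold change was 1.36 (SE 0.21, edgeR adjusted p = 5.26e-05), and 0.91 with library size alone (adjusted p = 0.00206). Bmp6 and Gdf6 were the members called higher under either scaling. Over input they differed: log2 enrichment rose without overlap at Gdf6 (3.26 and 3.00 to 4.06 and 4.28). At Bmp6 it overlapped (4.36 and 3.87 against 4.08 and 4.46), with 12 input reads in control and 21 in ex14D.

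Grem1 (chr2:113748675-113758648, reverse strand) had 347 and 314 CPM in control and 467 and 478 CPM in ex14D. The log2 fold change was 0.97 (SE 0.20, edgeR adjusted p = 0.00151), and 0.52 with library size alone (adjusted p = 0.0583). On the CPM scale both ex14D libraries were above both control libraries, as they were for the remaining 2 calls. Log2 enrichment over input at Grem1 overlapped, with 3.41 and 3.26 in control and 3.33 and 3.36 in ex14D. Fst (chr13:114452262-114458951, reverse strand) had 439 and 391 CPM in control and 527 and 516 CPM in ex14D, a log2 fold change of 0.78 (SE 0.20, edgeR adjusted p = 0.00988). Bmp8b (chr4:123105161-123126094, forward strand), a ligand of germ cell and brown fat biology, had 128 and 152 CPM in control and 201 and 170 CPM in ex14D. Its log2 fold change was 0.85 (SE 0.22, edgeR adjusted p = 0.0135). With library size alone Fst had 0.33 (adjusted p = 0.213) and Bmp8b 0.40 (adjusted p = 0.238), so these calls, like that of Grem1, were lost under that scaling. Bmp8b has a close paralog, Bmp8a, and reads in shared sequence could have been divided between them. Bmp8a had 48.8 and 66.2 CPM in control and 37.2 and 39.3 CPM in ex14D, with no call.

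At the other enriched promoters no difference in H3K27me3 passed the test after TMM. Bmp2 had 375 and 265 CPM in control and 369 and 349 CPM in ex14D (log2 fold change 0.62, SE 0.21, edgeR adjusted p = 0.0613), and Bmp7, a ligand of kidney and eye development, had 254 and 239 against 277 and 259 CPM (0.57, SE 0.20, adjusted p = 0.0757). Both had a log2 fold change near 0 with library size alone, 0.18 and 0.12. Inhbb had 629 and 429 CPM in control and 413 and 326 CPM in ex14D, and Nog 397 and 331 against 274 and 232 CPM, each with a log2 fold change of −0.07 after TMM. These raw shares were lower in ex14D without overlap, but the adjusted p was 0.907 for Inhbb and 0.894 for Nog with TMM and 0.0813 and 0.075 with library size alone.

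Smad6, an intracellular inhibitor of BMP receptor signalling, had unequal control libraries. Its promoter had 232 and 105 CPM in control and 82.0 and 56.1 CPM in ex14D, a log2 fold change of −0.81 (SE 0.30, edgeR adjusted p = 0.104). With library size alone it was −1.25 (adjusted p = 0.00667), together with Gdf11 at −0.87 (153 and 190 against 98.6 and 89.7 CPM, adjusted p = 0.0175) and Tgfb1 at −0.75 (232 and 308 against 161 and 162 CPM, adjusted p = 0.0174). At Gdf11 and Tgfb1 every ex14D library was below every control library on the CPM scale.

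Other members with a peak in all 4 libraries had intermediate levels and no call under either scaling. Gdf10 had 306 and 305 CPM in control and 281 and 268 CPM in ex14D (log2 fold change 0.30, SE 0.20). Gdf7 had 274 and 194 against 197 and 181 CPM (0.15, SE 0.22), and Tgfb2 183 and 187 against 170 and 152 CPM (0.25, SE 0.21). Bmp3, an atypical BMP that opposes bone formation, had 185 and 170 against 173 and 180 CPM (0.45, SE 0.22). Gdf10, Tgfb2 and Bmp3 had close values in control and ex14D on the CPM scale, whereas at Gdf7 control replicate 1 stood above the rest. These 4 ligands had changes of 0.15 to 0.45 on the log2 scale after TMM but −0.30 to 0.00 with library size alone. Bmp4 had 136 and 126 against 133 and 98.6 CPM (0.27, SE 0.24), and Chrd, the gene of Chordin, 58.9 and 65.1 against 64.1 and 52.9 CPM (0.36, SE 0.30). Inhba and Tgfb3, which had peaks in all 4 libraries without reaching 2-fold over input in both control libraries, had 65.6 and 102 against 99.2 and 75.3 CPM and 52.2 and 99.2 against 53.8 and 56.9 CPM. For both the control libraries differed from each other by more than 1.5 times, with replicate 2 the higher.

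The 10 promoters without a peak in any library stayed below input. Bmp5, Bmp10, Gdf3, Gdf5, Gdf15, Mstn, Amh, Nodal, Bambi and Smad7 had 3.37 to 33.7 CPM of H3K27me3 in control and 5.51 to 24.8 CPM in ex14D, where their inputs had 31.2 to 72.0 CPM. Gdf5, a ligand of joint formation, was the highest of them in control with 33.7 and 27.7 CPM, and Mstn, the gene of the muscle growth inhibitor Myostatin, had 18.5 and 9.60 CPM. None of the 9 that were tested was called, and their standard errors of 0.35 to 0.58 on the log2 scale show how little such counts can resolve.

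By role, the H3K27me3 calls after TMM were 2 of 9 tested BMP ligands (median log2 fold change 0.57) and 1 of 7 GDF ligands (0.14). They were 0 of 7 activin, inhibin and TGF-beta ligands (−0.03) and 0 of 3 in the Nodal and Lefty group (0.20). Among antagonists or inhibitors they were 2 of 7 (−0.01). Over all promoters 5.85% were higher, and so few genes per role cannot be set apart from that share. The BMP median takes in Bmp5 (0.78, SE 0.56) and Bmp10 (0.57, SE 0.47), whose promoters were below input. With library size alone the BMP ligands ran from −0.60 (Bmp8a) to 0.92 (Bmp6). Gdf1 and Gdf3 were not tested. Gdf3 was under edgeR's filter on low counts. Gdf1 was listed at 0 in all 10 libraries. Its window overlaps that of Cers1, with which it shares a transcription unit, and reads on more than 1 window are assigned to no gene; the part of this overlap in the 0 was not tested.

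EZH2 fell on 10 of the 24 members tested (41.7%) and rose on none. Over all 13401 genes tested 7.88% were lower and 0.0522% higher. The 10 were the BMP ligands Bmp2 and Bmp4, the GDF ligands Gdf6 and Gdf7, the activin and TGF-beta genes Inhba, Inhbb, Tgfb1 and Tgfb2, and the inhibitors Grem1 and Smad6. The median log2 fold change over the 24 members was −0.44, against 0.02 over all genes, and it stayed between −0.55 and −0.30 in every alternative run. The call depends on having both control libraries: without control replicate 1 or without control replicate 2, 0 members passed, as did 0 of all genes, with 12 members at an unadjusted p under 0.05 in each case. With ex14D replicate 1 left out the median over the members was −0.55, and with ex14D replicate 2 left out it was −0.30. The spread in those fits comes from the control libraries alone. These differed less from each other than the ex14D libraries did (chi-square per degree of freedom 1.48 against 3.95).

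The remaining 11 members could not be tested because the tables list them at 0 in all 4 EZH2 libraries. They were Bmp8a, Bmp8b, Gdf1, Gdf11, Gdf15, Tgfb3, Amh, Nodal, Nog, Fst and Smad7. All 11 lie in long runs of neighbouring genes at 0, which hold 9134 of the 10575 genes listed at 0 in every EZH2 library. EZH2 domains were nevertheless called over the promoters of several of them (Bmp8a, Bmp8b, Gdf11, Tgfb3, Nog and Fst), so a listed 0 is not a measurement of absent EZH2.

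Gdf7 (chr12:8297918-8301954, reverse strand), a ligand of the dorsal neural tube roof plate, fell the most. It had 76.5 and 81.2 CPM in control and 31.3 and 19.2 CPM in ex14D, a log2 fold change of −1.70 (SE 0.18, edgeR adjusted p = 0.00366). Inhbb (chr1:119415463-119422248, reverse strand) had 156 and 129 CPM in control and 75.2 and 44.0 CPM in ex14D (−1.31, SE 0.22, edgeR adjusted p = 0.0122). Both ex14D libraries were far below both control libraries for each gene, and ex14D replicate 2 was the lower of the pair. The same order of the 2 ex14D libraries held for Bmp4 (chr14:46383525-46390669, reverse strand), a ligand used in mesoderm induction and added to ES cell cultures to hold them undifferentiated. Bmp4 had 51.5 and 48.6 CPM in control and 28.3 and 17.2 CPM in ex14D (−1.20, SE 0.19, edgeR adjusted p = 0.00969). Bmp2 (chr2:133552159-133562896, forward strand) had 118 and 114 CPM in control and 69.0 and 43.6 CPM in ex14D (−1.09, SE 0.18, edgeR adjusted p = 0.0115).

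Tgfb1 (chr7:25687002-25705077, forward strand), the founding TGF-beta ligand, gave tight values, 57.6 and 57.8 CPM in control and 32.9 and 30.9 CPM in ex14D. Its log2 fold change was −0.90 (SE 0.06, edgeR adjusted p = 0.00325). Gdf6 had 167 and 160 CPM in control and 110 and 74.8 CPM in ex14D (−0.87, SE 0.15, edgeR adjusted p = 0.0144), and Grem1 had 76.3 and 70.1 CPM in control and 50.9 and 33.0 CPM in ex14D (−0.85, SE 0.17, adjusted p = 0.0235). Gdf6 and Grem1 were the members called with both antibodies, lower for EZH2 and higher for H3K27me3 after TMM, though with library size alone the H3K27me3 call at Grem1 was lost.

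Smaller falls were called on Smad6, Inhba and Tgfb2, genes of 19.8 to 83.2 kb. Smad6 (chr9:63953076-64022059, reverse strand) had 131 and 134 CPM in control and 99.1 and 88.4 CPM in ex14D (−0.54, SE 0.07, edgeR adjusted p = 0.00518). Inhba (chr13:16011851-16031609, forward strand), the gene of the activin beta-A subunit, had 30.7 and 31.5 CPM in control and 22.6 and 23.3 CPM in ex14D (−0.48, SE 0.07, adjusted p = 0.00686). Tgfb2 (chr1:186622792-186705989, reverse strand), a TGF-beta of heart and craniofacial development, had 117 and 104 CPM in control and 91.5 and 89.7 CPM in ex14D (−0.33, SE 0.06, adjusted p = 0.0204). DESeq2 did not call Tgfb2 (adjusted p = 0.183). Values just outside the threshold were −0.23 for Bmp6 (274 and 255 against 242 and 222 CPM, edgeR adjusted p = 0.0557), −0.47 for Bmp3 (adjusted p = 0.0562) and −0.41 for Bmp7 (adjusted p = 0.057), each without overlap between the genotypes.

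Gene length moved with these values. The counts cover whole genes, and Bmp6 spans 155 kb and Gdf7 4.04 kb. Across the 16 tested members with an EZH2 domain at the promoter in both control libraries, Spearman's rho between length and log2 fold change was 0.66, and it was 0.74 over all 2413 such genes, so longer genes had changes nearer to 0. The part of length in the smaller changes of Bmp6, Bmp7 and Tgfb2 was not tested. On a scale per length, EZH2 in control cells was highest on Inhbb (21 CPM per kb) and Gdf7 (19.5), followed by Bmp2 (10.8), Gdf6 (9.11), Grem1 (7.34) and Bmp4 (7.01). Of the called members, Inhba (1.57) and Tgfb2 (1.33) were lowest, close to members without a domain. The 8 tested members with no EZH2 domain shared by both control libraries lay between 0.899 (Gdf3) and 1.32 CPM per kb (Gdf5), and none of these 8 was called. They were Bmp5, Bmp10, Gdf3, Gdf5, Mstn, Lefty1, Lefty2 and Bambi, with log2 fold changes from −0.24 (Gdf5) to 0.11 (Bambi). Nearest to 0 were Mstn (6.93 and 6.36 against 6.75 and 6.88 CPM, 0.00, SE 0.13) and Bmp5 (115 and 117 against 120 and 122 CPM, 0.02, SE 0.04).

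All 16 members with a domain in both control libraries and a test had a negative EZH2 log2 fold change, with a median of −0.63, and 10 of them were called (62.5%). Among all 2413 genes of this kind the median was −0.22 and 39% were called. Since the domains were called in the same control libraries that enter the fold change, both figures describe these genes and are not an independent test.

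**Figure D3:**
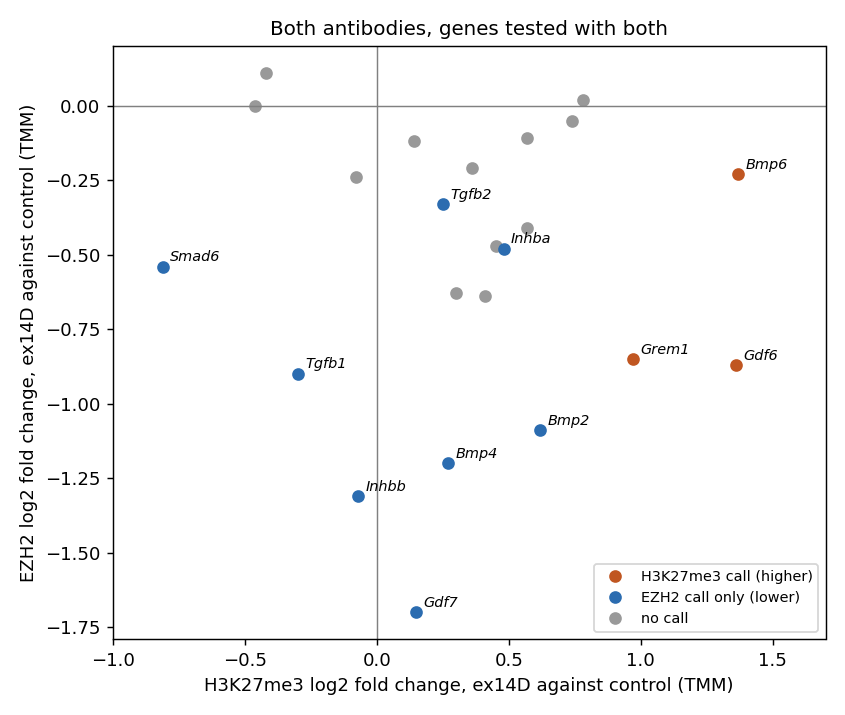
H3K27me3 log2 fold change (x axis) against EZH2 log2 fold change (y axis), ex14D against control after TMM, for the 23 members tested with both antibodies; orange, called higher for H3K27me3; blue, called lower for EZH2 only; grey, no call. Gdf7 has the lowest EZH2 value (−1.70) beside an H3K27me3 value of 0.15, and Spearman's rho over the points is 0.02.

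The size of the EZH2 change and the size of the H3K27me3 change had no common order across the family. Over the 23 members tested with both antibodies Spearman's rho was 0.02, from libraries that the antibodies do not share. Of the 16 members with an EZH2 domain in both control libraries, 16 had lower EZH2 values while 13 had an H3K27me3 log2 fold change above 0 after TMM, and 6 with library size alone. Neither sign is particular to the family. The median EZH2 change was −0.22 over all tested genes with such a domain. After TMM the median H3K27me3 change was 0.33 over all tested promoters enriched in control. Gdf7, with the largest fall in EZH2, had 274 and 194 CPM of H3K27me3 in control and 197 and 181 CPM in ex14D (log2 fold change 0.15, adjusted p = 0.766). Bmp6, with the largest H3K27me3 log2 fold change, had an EZH2 change of −0.23 that missed the threshold. The level of the mark and the EZH2 change were more closely ordered: rho between control H3K27me3 enrichment and the EZH2 log2 fold change was −0.73 over 24 members. These include the members with no EZH2 domain shared by both control libraries, whose changes ran from −0.24 to 0.11. Whether the order holds among the 16 with a domain was not tested.

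Called intervals gave a view of where the mark lay. A MACS2 broad peak of H3K27me3 overlapped the promoter window of 23 of 35 members (65.7%) in both control libraries and of 23 members in both ex14D libraries, against 18% and 16.5% of the 24338 promoters placed on GRCm38. A stricter limit, a q-value under 0.001, left 13 members in control and 20 in ex14D. The share of all promoters was not taken at that limit, and the control libraries were shallower. With all called peaks, no member had a peak in both libraries of one genotype and in neither of the other. Over all genes, 6.49% of those with a peak in both control libraries had none in ex14D and 1.02% the reverse, so a count of 0 among 23 members is near the background. An EZH2 domain overlapped the window of 22 members (62.9%) in both control libraries and of 17 (48.6%) in both ex14D libraries, against 16.8% and 10.4% of all promoters.

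The members that had an EZH2 domain in both control libraries and in neither ex14D library were Gdf11, Inhba and Tgfb3, 3 of 22. Over all genes this was 1021 of 4086 (25%), and the reverse pattern was found at 0 genes. H3K27me3 peaks still overlapped the window of all 3 promoters in every library, but some of them only at its edge. At Gdf11 the overlap was 95 bp in ex14D replicate 2. At Tgfb3 it was 158 bp in control replicate 1 and 403 and 144 bp in ex14D. The Inhba domain was 2000 bp and 3000 bp wide in the control libraries, and the Gdf11 domain 4000 bp and 7000 bp. Tgfb3, a ligand of palate closure, had domains of 2000 bp and 3000 bp. Bmp4 lost its domain in ex14D replicate 2 only, and Bmp8a lost it there too.

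**Figure D4:**
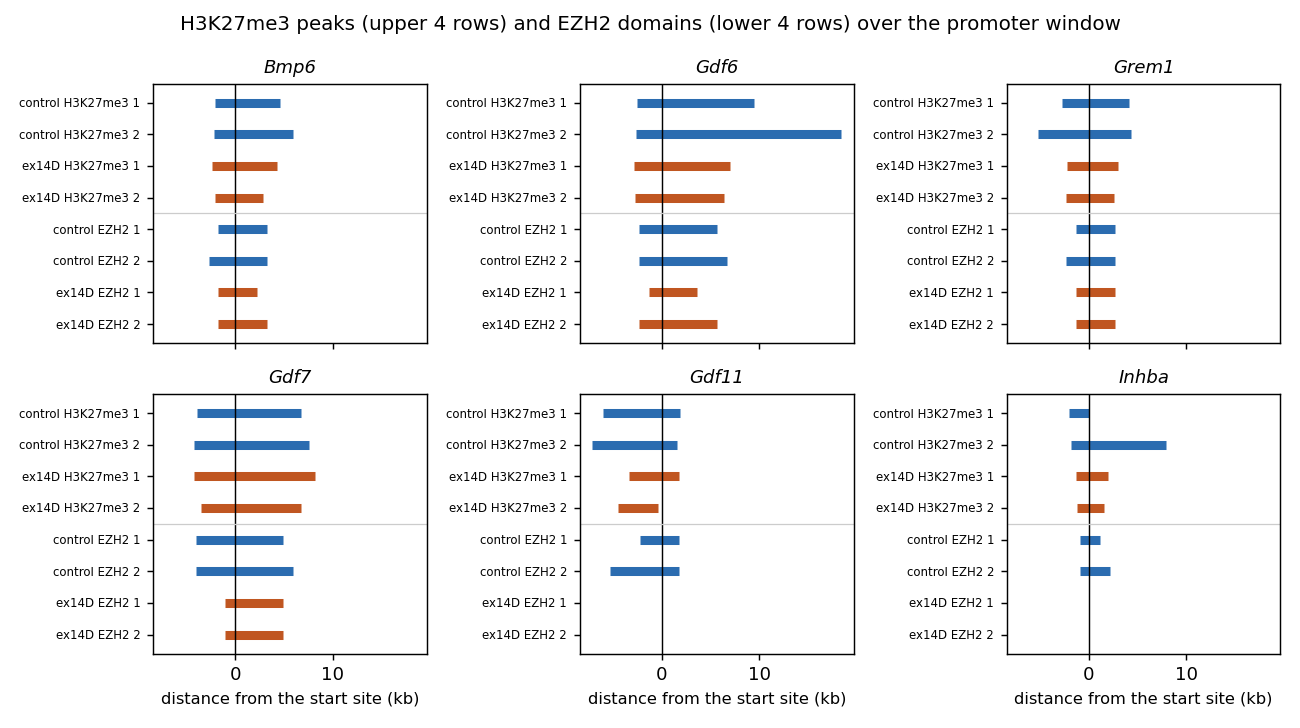
H3K27me3 broad peaks (upper 4 rows of each panel) and EZH2 domains (lower 4 rows) that overlap the promoter window of 6 members, against distance from the start site in kb along the direction of transcription; blue, control; orange, ex14D. The Gdf7 domain starts at −4.05 kb in both control libraries and at −1.05 kb in both ex14D libraries, and Gdf11 and Inhba have no EZH2 domain in ex14D.

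EZH2 domains that were called in all libraries tended to be narrower in ex14D, although their widths come in steps of 1000 bp. Of 17 members with an EZH2 domain in all 4 libraries, 9 were narrower in both ex14D libraries than in both control libraries (52.9%) and 0 were wider, while over all 2529 such genes 44.3% were narrower. The 9 were Bmp2, Bmp3, Bmp7, Gdf7, Inhbb, Nog, Smad6, Tgfb1 and Tgfb2. At Gdf7 the domain went from 9000 and 10000 bp to 6000 and 6000 bp, and its upstream end moved from −4.05 to −1.05 kb, while its downstream end stayed at 4.95 kb or moved there from 5.95 kb. For H3K27me3, 9 of 22 members had narrower peaks in both ex14D libraries (40.9%, beside 38% of 3677 genes), among them Bmp6, Gdf6 and Grem1. The replicates differed in this: ex14D replicate 1 was narrower than control replicate 1 at 10 of the 22. Between the libraries numbered 2 it was 20. The Gdf6 peak spanned 12109 and 21027 bp in control and 9820 and 9191 bp in ex14D, and that of Grem1 6894 and 9575 bp against 5205 and 4978 bp. At Gdf6 and Grem1 the count in the central 1 kb window was therefore higher in ex14D by the test above while the called peak was narrower. The Bmp6 count was higher too, but its widths lay closer, 6708 and 8091 bp in control against 6629 and 4965 bp in ex14D. Chrd was the member whose peak was wider in both ex14D libraries, with 5121 and 4875 bp against 3337 and 4418 bp. Widths also move with depth, and the part of depth in them was not tested.

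A few members had intervals of 1 kind only or in part of the libraries. Lefty1 had an H3K27me3 peak in all 4 libraries (468 to 994 bp of the window) but no EZH2 domain, and EZH2 of 3.17 to 4.48 CPM. Lefty2, its paralog next to it on chromosome 1, had a peak in 3 of 4 libraries and no domain; reads in sequence that the paralogs share could have been divided between them. Inha, the inhibin alpha subunit gene, had peaks and domains in every library, but its window overlaps that of Obsl1, with which the signal is shared. Bambi and Smad7, which restrain TGF-beta and BMP receptors, had an EZH2 domain in control replicate 2 alone and no H3K27me3 peak. Bmp5, Bmp10, Gdf3, Gdf5, Gdf15, Mstn, Amh and Nodal had no interval of either kind in any library.

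Members enriched over input in both control libraries had more CpGs, as a group, than the others. RefSeq promoter sequences of 300 bases, from 250 before to 50 after the start, were in the table for 21 of the 35 members. The 12 of these that were enriched in control cells had 10 to 42 CpGs, with a median of 27.5, whereas the 9 that were not had 1 to 22, with a median of 5. The 22 belonged to Gdf1, which has no reads, and the next was Bmp8a with 15. Inha and Inhba, with 5 and 7 CpGs, count here as not enriched although H3K27me3 peaks were called at both in all 4 libraries. Over all genes with a sequence the medians were 22 CpGs for 1935 enriched promoters and 12 for 15576 others. The ratio of observed to expected CpGs had a median of 0.76 in the enriched members and 0.28 in the others. Gdf10, a ligand also named Bmp3b, had the most CpGs of the members (42) with log2 enrichments of 2.77 in both control libraries, and Gdf15, a stress-induced ligand, had the fewest (1) with −1.35 and −1.85.

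**Figure D5:**
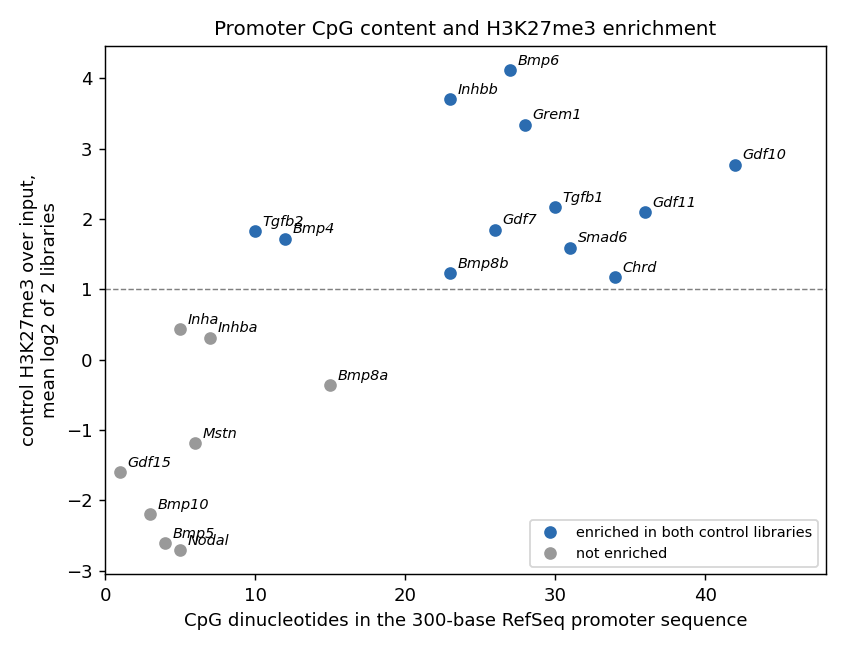
CpG dinucleotides in the 300-base RefSeq promoter (x axis) against mean control H3K27me3 enrichment of the 2 libraries (y axis, log2) for 20 members, 12 enriched (blue) and 8 not (grey); Gdf1, with 0 reads, is left out. No member with fewer than 10 CpGs is above the dashed 2-fold line, and Bmp8a, with 15, is below it.

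Tgfb2 and Bmp4 were enriched with few CpGs in this stretch, 10 and 12, and Bmp8a was not enriched with 15. The motif CCGCC, which itself contains a CpG, was found on either strand in 11 of 12 enriched members (91.7%) and 4 of 9 others (44.4%), beside 83.4% of all enriched promoters, 58.2% of all others and 61% of all 17511 promoters. The motif GAGAG was found in 12 of 21 members (57.1%), beside 62.1% of all promoters, so its share was not higher in the family. A match describes the letters only and not binding.

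Other genes of the pathway were compared from a list of 48 receptors, Smads, further ligands and antagonists, and Id target genes. Of these, 15 (31.2%) were enriched for H3K27me3 in control cells, beside 11.3% of all promoters, and 21 (43.8%) had an EZH2 domain in both control libraries, beside 16.8%. For H3K27me3, 3 of 41 tested were lower (7.32%, beside 3.19% of all promoters) and 2 were higher (4.88%, beside 5.85%), and the median change was 0.00 on the log2 scale. For EZH2, 4 of 28 tested fell (14.3%, beside 7.88% of all genes) and 0 rose, and the median was −0.06. Among the 13 receptors tested for EZH2 none was called, which so few genes cannot set apart from the 7.88% of all genes.

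The Id genes, which encode inhibitors of bHLH factors and are direct targets of BMP signalling, gave 3 of the 4 EZH2 calls in this list. Id4 had 9.02 and 10.5 CPM in control and 4.70 and 2.62 CPM in ex14D (log2 fold change −1.50, SE 0.24, edgeR adjusted p = 0.00986). Id1 (−1.08, SE 0.20, adjusted p = 0.018) and Id3 (−1.01, SE 0.17, adjusted p = 0.0123) also fell, as did Nbl1, a secreted BMP antagonist of the DAN family (−0.90, SE 0.16, adjusted p = 0.0149). After TMM, Id3 and Nbl1 were, like Gdf6 and Grem1, lower for EZH2 and higher for H3K27me3, with H3K27me3 log2 fold changes of 0.86 (SE 0.20, edgeR adjusted p = 0.0055) and 0.77 (SE 0.19, adjusted p = 0.00999). With library size alone these H3K27me3 changes were 0.41 (adjusted p = 0.133) and 0.32 (adjusted p = 0.216), so both calls were lost. Id3 had 414 and 433 CPM of H3K27me3 in control and 502 and 622 CPM in ex14D, but its log2 enrichment over input, 2.99 and 3.05 against 2.69 and 3.00, was not higher. Lower H3K27me3 was called at Id4 (−1.98, SE 0.37, edgeR adjusted p = 0.000645), at the BMP type II receptor gene Bmpr2 (−1.90, SE 0.33, adjusted p = 0.000274) and at Ski, which encodes a Smad corepressor (−1.43, SE 0.37, adjusted p = 0.0122). Bmpr2 had 85.8 and 130 CPM in control and 24.8 and 17.6 CPM in ex14D, and neither Id4, Bmpr2 nor Ski was enriched over input in both control libraries.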

How the data were processed

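ChIP-seq counts, peaks and domains were taken as deposited by the authors. Reads were aligned to mm10 (Bowtie in the methods, Bowtie2 in the submitters' processing notes, which also name Trimmomatic, HTSeq, MACS2 and ChIPseeker) and counted with htseq-count. The counts the authors deposited were integers for each gene and had not been normalized. Reads on no gene or on several (92.4% to 98.1% of H3K27me3 and input reads, 55.7% to 56.1% of EZH2 reads) were left out of library sizes. The authors deposited MACS2 broad peaks per library with a fold enrichment (a ratio) and a −log10 q-value, used here only for a stricter peak set, and EZH2 domains of hiddenDomains. H3K27me3 domains were not used because they ran past the end of 8 chromosomes of GRCm38. Start sites came from RefSeq on GRCm38, the assembly of mm10.

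Counts were compared with edgeR 4.0.16 in R 4.3.3 (TMM, filterByExpr, quasi-likelihood F test, Benjamini-Hochberg over all genes, threshold 0.05). The SE was approximated as the log2 fold change divided by √F. DESeq2 1.42.0 was an alternative. On simulated counts, edgeR called 52% of 2-fold and 98% of 4-fold changes for H3K27me3 (14841 genes), and 96% and 100% for EZH2 (13386 genes). The simulation gave all genes 1 common dispersion and changed as many up as down, among genes above a floor of reads. The real EZH2 calls were 1056 lower and 7 higher, so these percentages are not the power of the tests reported. Other calculations used Python 3.11.15, pandas 2.3.3 and scipy 1.17.1. The members, the gene lists and the rule for named genes were chosen with earlier results of these data known. All 35 members are named by role. Values per library are given for members past the threshold, the 6 highest and the 4 lowest by control H3K27me3 enrichment, and for up to 8 called pathway genes per antibody with the largest changes. Further values were chosen after they were seen. Replicate numbers were not used as pairs in the tests reported.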

Additional observations from a re-analysis of the deposited data

How the results depend on the processing

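The H3K27me3 counts and median depend on scaling. With library size alone, 3 members were lower and 2 higher, beside 2130 lower and 398 higher of all 14883 promoters tested. The median log2 fold change over the members was then −0.20. It was 0.12 with all counted reads as library size and 0.36 when centred on unmarked promoters. Without a filter on low counts, 1 member (Smad6) was lower. With 1 library left out, the count of higher members ranged from 0 to 6 and the median from 0.19 to 0.33. For EZH2, with 1 library left out, the count of lower members ranged from 0 to 15 and the median from −0.55 to −0.30. These fits assume that a lone library varies like the others, and the cause of the zero counts without a control library was not tested. The other settings changed neither EZH2 result by more than the limits used (9 to 12 lower, 0 higher). Of the single EZH2 calls, 59 of 60 gene-by-setting values outside the library omissions stayed past the threshold, the exception being Tgfb2 under DESeq2. For H3K27me3 it was 26 of 30, the 4 losses being under library size alone and all counted reads. No called gene reversed.

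Peaks with q under 0.001 were at 13 members in control instead of 23, and at 20 in ex14D. The share over all genes was not taken at this limit. Control H3K27me3 libraries were shallower, with 10525739 and 15683174 reads counted against 19151253 and 18184514 in ex14D. The part of depth in the 13 and 20 was not tested. CPM over all counted reads gave 22 enriched members in ex14D instead of 14 (20 in control). The replicate numbers do not mark a shared origin in the labels: deviations of same-numbered libraries correlated at −0.105 for H3K27me3 and −0.0317 for EZH2. With the replicate block, 5 members were higher for H3K27me3 (median 0.25) and 12 lower for EZH2 (median −0.45), so it changed no other call than adding Bmp3 and Bmp6 for EZH2. Simulated 2-fold changes were recovered less often for H3K27me3 than for EZH2, and whether depth or the larger spread between its libraries set this was not tested. Member inputs held 8 to 30 reads where they held any.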
